A study of Mus musculus with 20 samples.

Results

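Sqle encodes squalene epoxidase, and all clones annotated to this single gene were taken from both array designs of a comparison of the Fob3b and F mouse lines. That gave 1 clone of the 15360 clones on the arrays. It was printed as 2 spots on the first design, where it is 1 of 7680 clones, and 0 of the 7680 clones of the second design are annotated to Sqle. All values of Sqle therefore come from the 10 arrays of the first design.

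The F line was selected for fatness, and the Fob3b line is an F line into which a segment of chromosome 15 spanning the obesity locus Fob3b was bred from a lean line. Total RNA of liver and of brown adipose tissue was pooled into 2 pools per line and tissue, and the labels give neither the number of animals in a pool nor their age, sex, diet or treatment. On 8 of the 10 arrays a Fob3b pool was hybridised against the F pool of the same number, in either dye orientation, which makes 2 pool pairs per tissue. On the other 2 arrays pool 1 of liver was hybridised against itself, once for the Fob3b line and once for the F line.

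Squalene epoxidase adds an oxygen atom to squalene, the first oxygen-requiring step of cholesterol synthesis and one of its points of control. The enzyme just before it, squalene synthase (Fdft1), makes squalene, and the enzyme just after it, lanosterol synthase (Lss), closes the rings. Genes of this pathway share activation by SREBP-2, a membrane-bound transcription factor released when sterols run low. Liver is a main site of the synthesis, and brown adipose tissue is the heat-producing fat depot. Sqle lies on chromosome 15, as the locus does.

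Each deposited value is a log ratio of the dyes at a spot, without the intensities behind it. The labels state neither the log base nor the numerator, and base 2 and red over green were assumed. Each array was centred on its median clone and turned so that the Fob3b line is the numerator. If green had been divided by red, every sign given for the lines would turn. The words positive and negative are used here in that sense, and no line is called the higher one. Levels cannot be read from ratios, so neither the tissue labels nor the level of Sqle could be checked. Of the brown adipocyte markers Ucp1, Cidea, Ppargc1a, Dio2, Elovl3, Cox8b, Cox7a1, Fabp4, Adipoq and Plin1, 0 were measured on this design. In bulk RNA, fewer cells of a type and less RNA per cell cannot be told apart.

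In brown adipose tissue Sqle stood far on the positive side in pool pair 1 and near 0 in pool pair 2. In pool pair 1 it had a log2 ratio of 1.20 on the array with Fob3b in red and 1.12 on the array with Fob3b in green. In pool pair 2 it had -0.09 on the array with Fob3b in red and -0.03 on the array with Fob3b in green. With arrays centred on their median clone, both values of pool pair 1 thus lay above both of pool pair 2. The share of all clones that separate in this way was not computed, so it cannot be read as a trait of Sqle. With each printing block centred on its own median clone instead, the pairs overlapped. Pool pair 1 then had 1.27 and 0.30, and pool pair 2 had 0.53 and -0.44. As centred on the array median, the dye orientations of each pair lay close together, 0.08 and 0.06 apart. A wider gap between orientations was seen for 88.3% of all clones in pool pair 1 and for 94.2% in pool pair 2. Averaged over the dyes, Sqle had 1.16 in pool pair 1, a 2.23-fold difference, and only 7 of the 7680 clones had a larger ratio. The value in pool pair 2 was -0.06, and 4977 clones had a larger ratio.

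The printed spots of Sqle gave the same picture on these arrays. In pool pair 1 they had 1.19 and 1.20 with Fob3b in red, and 1.09 and 1.14 with it in green. Those of pool pair 2 had 0.03 and -0.22 with Fob3b in red, and -0.04 and -0.03 with it in green. Spots of opposite sign were seen on 1 array, that of pool pair 2 with Fob3b in red.

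The mean of the brown adipose pool pairs was 0.55 ± 0.86 (SD, n = 2), a 1.46-fold difference, and it did not pass the test. With limma, which fits all clones together and borrows spread between them, the standard error (SE) was 0.32, the 95% interval ran from -0.15 to 1.25, the unadjusted p was 0.113 and the adjusted p was 1.0. Of 7680 clones, 0 passed an adjusted p of 0.05 in brown adipose tissue (0%), and 65 had an unadjusted p under 0.05 (0.846%). Sqle ranked 31 of 7680 by its mean ratio. An exact sign permutation over 2 pool pairs cannot give a two-sided p below 0.5, and for Sqle it gave 1. Without pool pair 1 the value became -0.06 and without pool pair 2 it became 1.16, so the positive mean came from pool pair 1. p-values here measure the spread between pools, not between animals.

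**Figure D1:**
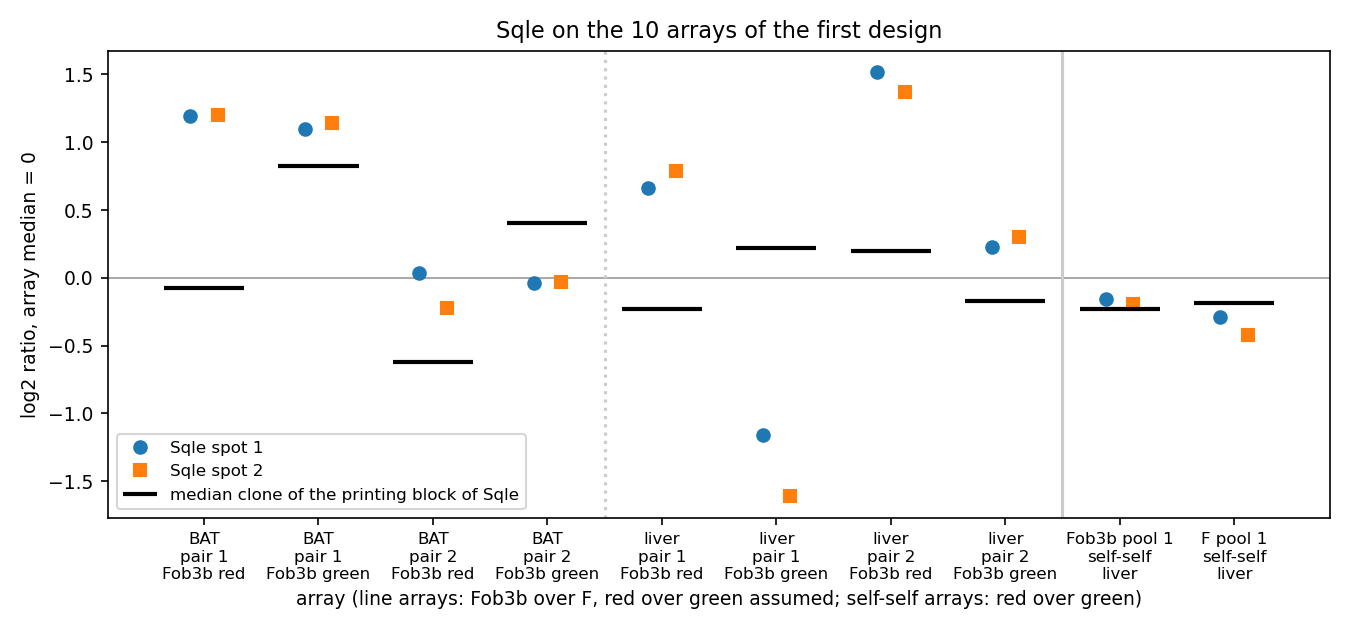
Log2 ratio of Sqle (vertical axis, array median at 0) on each of the 10 arrays (BAT, brown adipose tissue), with a circle and a square for its 2 spots and a bar for the median clone of the printing block that holds it. Both arrays of brown adipose pool pair 1 lie at 1.12 and 1.20, both of pool pair 2 lie near 0, and the liver arrays run from -1.39 to 1.44.

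The ratio of Sqle in brown adipose pool pair 1 stood beside a shift of its printing block. Sqle lies in block 20 of 48, and each block holds 160 clones. On the array of pool pair 1 with Fob3b in green, the median clone of that block had 0.82, and the 10 clones printed within 5 positions of Sqle had a median of 0.86 and a range of 0.19 to 1.64. Sqle at 1.12 was thus inside the range of its printed neighbours on that array, and 595 clones of the array lay above it. With Fob3b in red the block median was -0.07 and the neighbours ranged from -0.29 to 0.39, all below Sqle at 1.20, and 21 clones of the array lay above it. With each block centred on its own median clone, Sqle had 1.27 and 0.30 on these arrays, and 0.78 as their mean.

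In pool pair 2 the block shifted as well. Its median was -0.62 on the array with Fob3b in red and 0.40 on the array with Fob3b in green. Relative to its block Sqle therefore had 0.53 and -0.44 there, values of opposite sign that average 0.05. With blocks centred, the brown adipose mean was 0.41 (SE 0.31, limma adjusted p 1.0). The part of the block shift in the ratio of Sqle was not tested beyond these values.

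The difference between the brown adipose pool pairs was tested in a limma fit of single arrays with a dye effect, in which the self-self arrays also entered. Pool pair 1 minus pool pair 2 was 1.22 (SE 0.51, unadjusted p 0.0332, adjusted p 0.996). At the unadjusted threshold 292 of 7680 clones were called (3.80%), and 0 were called after adjustment (0%). The difference became 0.74 with blocks centred (unadjusted p 0.161). The spread in this fit is that between arrays of the same RNA, so it is technical.

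In liver the values of Sqle ran from -1.39 to 1.44, wider than the -0.09 to 1.20 of brown adipose tissue, and did not separate by pool pair. In pool pair 1 Sqle had 0.73 on the array with Fob3b in red and -1.39 on the array with Fob3b in green. In pool pair 2 it had 1.44 on the array with Fob3b in red and 0.26 on the array with Fob3b in green. The value was positive on 3 of the 4 liver arrays, and the pool pairs overlapped. On the array with 1.44, Sqle was 2.72-fold from equality and 20 clones lay above it.

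The array at -1.39 went against the other 3 liver arrays. Its spots had -1.16 and -1.61, the widest spot gap of Sqle on any array (0.45), and 13.4% of clones on that array had a wider one. In pool pair 1 the orientations were 2.11 apart, and only 0.404% of clones had a wider gap between them. Those of pool pair 2 were 1.18 apart, a gap exceeded by 15.4% of clones. Before being turned, the dye ratio of Sqle was positive on both arrays of liver pool pair 1, at 0.73 and 1.39, so it did not change sign when the dyes were swapped. Over all clones the arrays of this pair correlated at -0.16 before turning, against 0.23 to 0.60 in the other pool pairs. A correct swap gives a negative value where line differences outweigh dye effects, which was not tested. After turning, 57.0% of clones had the same sign in both orientations, against 26.7% to 42.9% in the other pairs. Whether the channels are labelled the right way round, on this or any other pair, was not tested and could not be settled from the files. An exchange on any array would turn the sign of its values. On the array at -1.39, picked here for its value of Sqle, it would give 1.39 and a mean of the pair of 1.06. The liver mean, the difference between liver pool pairs, the difference between tissues and the signs of the other genes on that array would change as well. The block medians on the 2 arrays of liver pool pair 1 were -0.23 and 0.22, and with blocks centred Sqle had 0.95 and -1.61.

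Averaged over the dyes, Sqle had -0.33 in liver pool pair 1, against 0.85 in liver pool pair 2, with 51 clones above it in pool pair 2. The liver mean was 0.26 ± 0.84 (SD, n = 2), which is 1.20-fold, and it did not pass (limma SE 0.32, 95% interval -0.44 to 0.96, unadjusted p 0.427, adjusted p 1.0). In liver 0 of 7680 clones passed after adjustment (0%) and 253 had an unadjusted p under 0.05 (3.29%). The liver value turned with single arrays: it was 0.79 without the array of pool pair 1 with Fob3b in green and -0.27 without its partner in red, and -0.03 without the array of pool pair 2 with Fob3b in red and 0.56 without its partner in green. Without pool pair 1 it was 0.85 and without pool pair 2 it was -0.33. Pool pair 1 minus pool pair 2 was -1.18 in liver (SE 0.51, unadjusted limma p 0.0382, adjusted p 0.510), where 9.47% of clones had an unadjusted p under 0.05 and 0% passed after adjustment. That difference was -0.21 without the array of pool pair 1 with Fob3b in green, -2.16 without its partner in red, -0.79 without the array of pool pair 2 with Fob3b in red, and -0.45 with no centring.

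**Figure D2:**
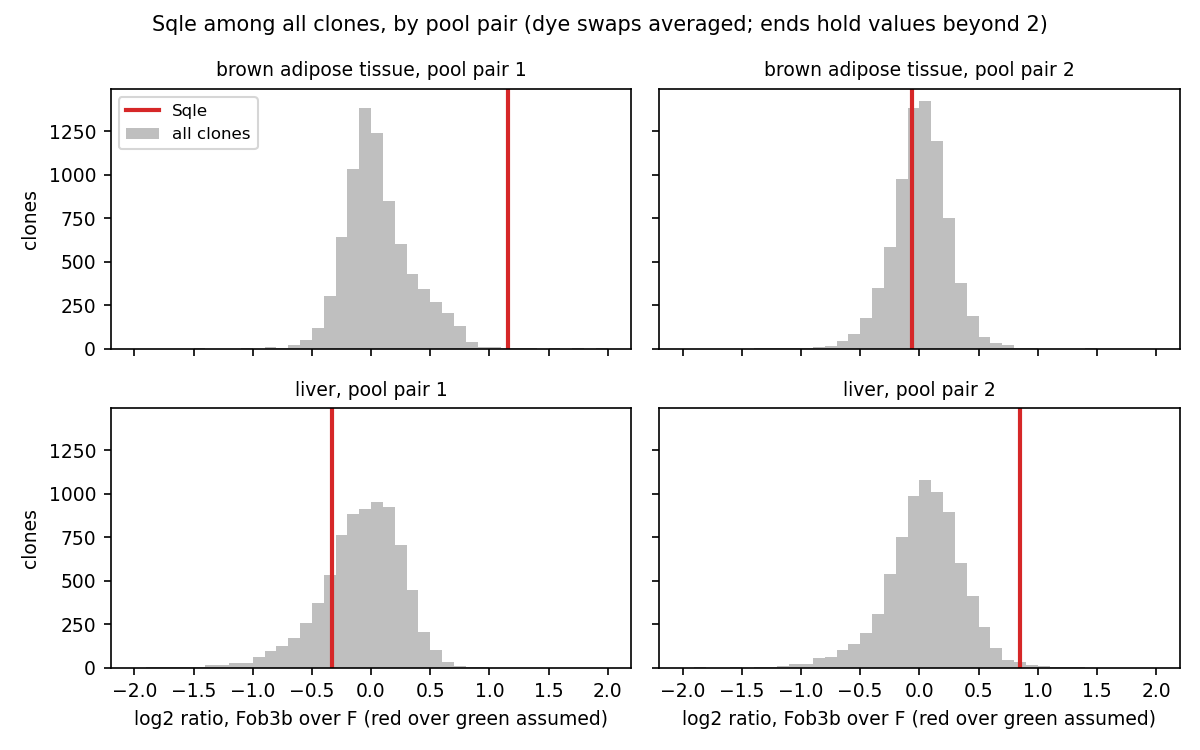
Histograms of the log2 ratio of all 7680 clones (grey, number of clones on the vertical axis) in each pool pair, dye swaps averaged, with Sqle as a line. Sqle lies at 1.16 and -0.06 in brown adipose pool pairs 1 and 2, and at -0.33 and 0.85 in liver pool pairs 1 and 2.

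The line difference of Sqle was not shown to differ between the tissues. Brown adipose tissue minus liver was 0.29 (SE 0.45, 95% interval -0.70 to 1.27, unadjusted limma p 0.538, adjusted p 0.999), with means of 0.55 in brown adipose tissue and 0.26 in liver. In this contrast 0% of clones passed after adjustment and 2.83% had an unadjusted p under 0.05. The difference was -0.92 over pool pair 2 alone and 1.49 over pool pair 1 alone. It also turned to -0.24 without the array of liver pool pair 1 with Fob3b in green, and to -0.01 without the array of liver pool pair 2 with Fob3b in green. It was 0.58 without the array of liver pool pair 2 with Fob3b in red and 0.81 without the array of liver pool pair 1 with Fob3b in red.

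The self-self arrays, on which no line difference exists, give the size of ratio that dye and noise alone produced for Sqle in liver. The red over green ratio was -0.18 for the Fob3b pool against itself and -0.36 for the F pool against itself. Both lay on the negative side, as did the medians of the block on these arrays, -0.23 and -0.18. Of the 4 values of Sqle in the liver line comparisons, 3 were larger in size than either, and the fourth, 0.26, lay between them. The fitted dye effect of Sqle over the 10 arrays was 0.28 (SE 0.16, unadjusted limma p 0.111, adjusted p 0.311), where 24.0% of clones had an unadjusted p under 0.05 and 0% passed after adjustment. It was 0.083 without either array of liver pool pair 1, 0.52 with blocks centred (unadjusted p 0.00788, adjusted p 0.169), 0.96 with no centring, and 0.0048 in brown adipose tissue against 0.46 in liver when fitted per tissue. Within pool pairs, the part common to both dye orientations was 0.04 and -0.03 in brown adipose pool pairs 1 and 2, and 1.06 and 0.59 in liver pool pairs 1 and 2. With arrays centred on their median clone, it was thus larger on the liver line arrays than on the self-self arrays and of opposite sign. With blocks centred, the self-self ratios of Sqle were 0.05 for the Fob3b pool and -0.17 for the F pool.

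Arrays of a pool pair did not behave as mirror images over all clones. Before turning, dye-swapped arrays of the same RNA correlated across clones at 0.23 and 0.60 in brown adipose pool pairs 1 and 2. In liver pool pairs 1 and 2 they correlated at -0.16 and 0.29. A swap turns the sign of line differences but not of dye effects, which can differ by clone or block. A correct swap therefore gives a negative value only where line differences outweigh dye effects, which was not tested. Clones with 1 sign in both orientations made up 42.9% and 26.7% in the brown adipose pairs and 57.0% and 40.0% in the liver pairs. The agreement of Sqle between orientations in brown adipose pool pair 1 was therefore not shared by most clones on those arrays. Array medians before centring ran from -0.04 to 1.40 on this design, and paired spots of a clone correlated at 0.760 to 0.932.

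Most other measured enzymes of cholesterol synthesis were positive in brown adipose pool pair 1, as Sqle was, and none passed the test. Of 20 other genes on the list 8 were measured on this design, each by 1 clone, and 0 passed the adjusted test in either tissue. In brown adipose pool pair 1, 7 of the 8 were positive with a median of 0.72, against 56.0% of all 3838 genes and a median of 0.03. On its single arrays 6 of the 8 were positive with Fob3b in red and 7 with Fob3b in green, and Lbr differed in sign between them. In brown adipose pool pair 2, 5 of the 8 were positive with a median of 0.18, against 53.9% of all genes and a median of 0.02. Over both pairs 3 of the 8 had an unadjusted p under 0.05 on the positive side and 0 on the negative side, where 29 and 11 of all genes did. The study had named this pathway from these arrays, so the list is no independent evidence of a direction.

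The enzymes on either side of Sqle were positive in both brown adipose pool pairs, which Sqle was not. Fdft1, the squalene synthase, averaged 1.01, with 1.15 in pool pair 1 against 0.87 in pool pair 2 (unadjusted limma p 0.00105, adjusted p 1.0). Its dye orientations in the second pair were far apart, at 1.77 on the array with Fob3b in red and -0.03 on the array with Fob3b in green. Lss, the lanosterol synthase, averaged 0.54, with 0.74 in pool pair 1 against 0.34 in pool pair 2 (unadjusted limma p 0.0382, adjusted p 1.0). Its orientations in pool pair 2 were 0.68 and 0.01. On the array of pool pair 2 with Fob3b in green, Sqle, Fdft1 and Lss all lay near 0, at -0.03, -0.03 and 0.01.

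Dhcr7, the reductase of the last step to cholesterol, and Idi1, the isomerase that prepares isoprene units, had means of 0.50 and 0.47 in brown adipose tissue. Both had 0.80 in pool pair 1, against 0.21 for Dhcr7 and 0.15 for Idi1 in pool pair 2. Mvd, the decarboxylase of the mevalonate steps, had a mean of 0.46 and Lbr, a sterol reductase that is also a nuclear envelope receptor, 0.24. Hmgcs1, the synthase at the start of the pathway, had -0.20 and Nsdhl, a sterol dehydrogenase, -0.10. The dye orientations of Lbr had opposite signs in both pairs. With Fob3b in red and in green it had -0.36 and 1.69 in pool pair 1, and -0.93 and 0.57 in pool pair 2. In pool pair 2 the orientations also differed in sign for Mvd, at 0.63 and -0.18, and for Nsdhl, at -0.98 and 0.005. Of all 9 measured enzymes, Sqle had the widest gap between the brown adipose pool pairs with arrays centred on their median clone. With blocks centred the gap of Sqle was 0.74, and those of the other enzymes were not computed.

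**Figure D3:**
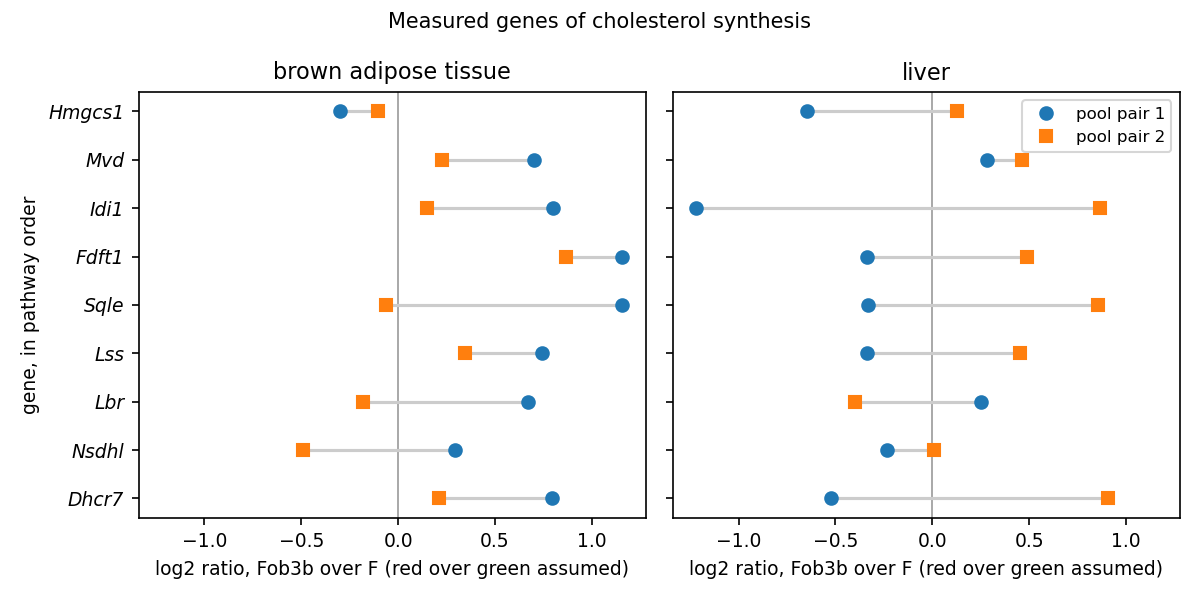
Log2 ratio (horizontal axis) of Sqle and the 8 other measured genes of cholesterol synthesis in brown adipose tissue and in liver, with a circle for pool pair 1 and a square for pool pair 2. In brown adipose tissue Sqle spans 1.16 to -0.06 while Fdft1 lies at 1.15 and 0.87; in liver pool pair 1 the median of the other 8 is -0.34 and in pool pair 2 it is 0.46.

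In liver the array on which Sqle went against the rest was also the array on which most of the pathway did. On liver pool pair 1 with Fob3b in green, Sqle had -1.39 and 7 of the 8 other enzymes were negative, with a median of -1.12, against 44.6% of all genes positive and a median of -0.06. There Idi1 had -2.24, Dhcr7 -1.43, Fdft1 -1.25, Hmgcs1 -1.25 and Lss -1.0. On the partner array with Fob3b in red, Sqle had 0.73 and 5 of the 8 others were positive, with a median of 0.23. The disagreement between the dye orientations was therefore not limited to the spots of Sqle.

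On the array of liver pool pair 2 with Fob3b in red, Sqle at 1.44 stood beside Dhcr7 at 1.52, Fdft1 at 1.0, Idi1 at 0.99 and Mvd at 0.95, while the other 4 were negative: Nsdhl had -0.01, Lss -0.03, Hmgcs1 -0.08 and Lbr -0.57. With Fob3b in green, Sqle had 0.26 and 5 of the 8 were positive, among them Dhcr7 at 0.30, Idi1 at 0.74 and Lss at 0.93, while Fdft1 had -0.02, Mvd -0.03 and Lbr -0.23. Averaged over the dyes, 7 of the 8 other enzymes were positive in liver pool pair 2 and 2 of 8 in liver pool pair 1. The liver means were between -0.26 for Hmgcs1 and 0.37 for Mvd, with a median of -0.01, and 0 of the 8 had an unadjusted p under 0.05. On the self-self arrays Sqle at -0.18 and -0.36 lay among the others, whose medians were -0.09 and -0.11.

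**Figure D4:**
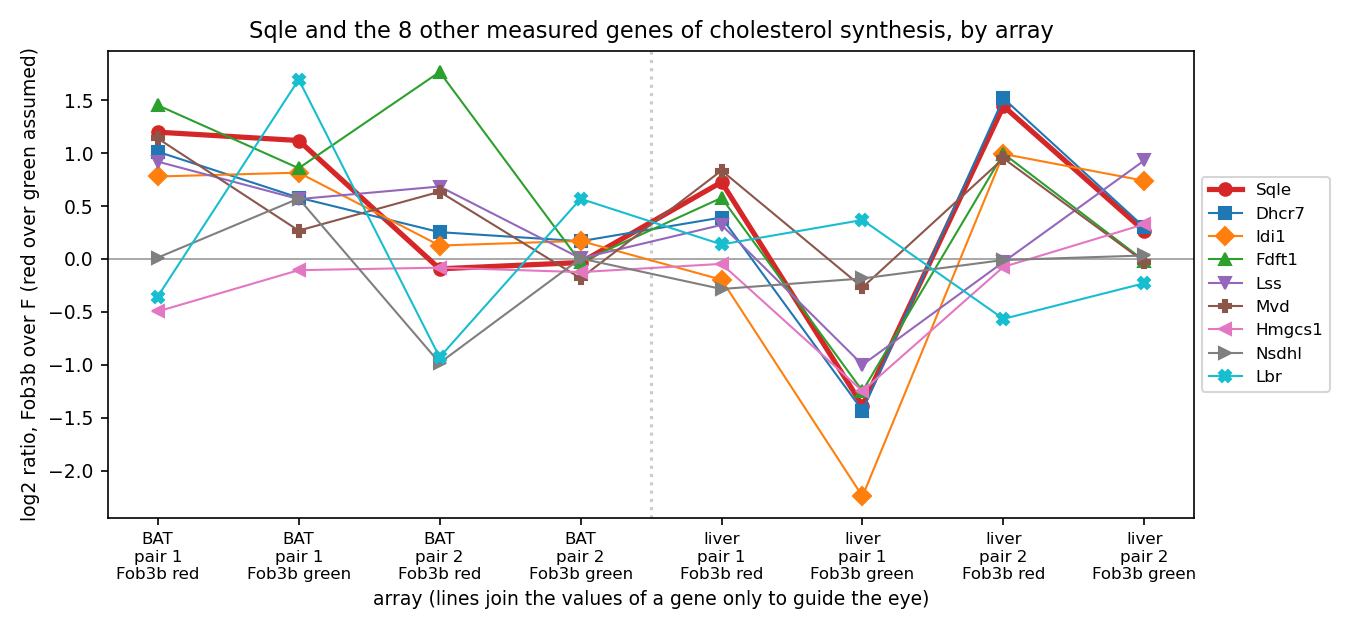
Log2 ratio (vertical axis) of Sqle and the 8 other measured genes of cholesterol synthesis on each of the 8 line-comparison arrays (BAT, brown adipose tissue). On the array of liver pool pair 1 with Fob3b in green the other 8 run from -2.24 to 0.37, with Lbr as the positive one, and on those of brown adipose pool pair 1 they run from -0.50 to 1.69, with Hmgcs1 negative on both.

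Dhcr7 was among the 10 annotated clones whose ratios ran most like those of Sqle over the 8 turned and centred line arrays, by Pearson's r across these arrays. The 10 were Rsrc1 (r = 0.98), Hsp90aa1 (0.97 and, in a second clone, 0.94), Evi5 (0.96), Cfdp1 (0.96), Ndufs6 (0.96), Dhcr7 (0.95), Mttp (0.95), Eif2s2 (0.94) and Papss1 (0.94). Over all 10 arrays as deposited, r was highest for Dhcr7 at 0.96, followed by the clones of Hsp90aa1, a cytosolic chaperone, at 0.94 and 0.92. It was lowest for Mttp, the lipid transfer protein of lipoprotein assembly, at 0.69. Those ratios were neither centred nor turned, so array medians and dye effects enter them. With the 10 arrays centred but not turned, r was 0.95 for Dhcr7 and 0.61 for Mttp. None of the 10 lay in the printing block of Sqle, but several shared a block with another of the 10. Rsrc1 and Papss1 lay in block 5, Evi5 and Mttp in block 6, and Cfdp1 and Ndufs6 in block 28. Eif2s2 and the second clone of Hsp90aa1 lay in block 24. With blocks centred, r of the 10 ran from 0.71 for Evi5 to 0.95 for the second clone of Hsp90aa1. The part of printing position in the likeness was not tested. All 10 share the arrays, the dyes and the centring with Sqle. Over 7679 clones the median r was 0.07 with the upper 1% above 0.86. These are descriptions over 8 arrays of 4 pool pairs.

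Likeness in shape did not mean likeness in size. In brown adipose pool pair 1 the 10 clones had ratios from 0.24 for Papss1 to 0.80 for Dhcr7, against 1.16 for Sqle. In liver pool pair 1 they ran from -1.0 for Mttp to -0.41 for Evi5, against -0.33 for Sqle. Of the pathway, Idi1 followed at r = 0.87, Mvd at 0.74, Fdft1 at 0.70, Lss at 0.61, Hmgcs1 at 0.57 and Nsdhl at 0.40, and Lbr had -0.01. This order depended on the scaling. With blocks centred, r was 0.97 for Mvd, 0.93 for Lss, 0.92 for Dhcr7, 0.81 for Fdft1, 0.80 for Idi1, 0.71 for Hmgcs1, 0.04 for Nsdhl and -0.18 for Lbr. Over the 10 arrays as deposited it was 0.53 for Lbr, and 0.36 with these arrays centred.

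Of 8 listed genes for electron transfer proteins, or for proteins that stimulate or degrade squalene epoxidase, 6 were measured, and 0 passed the adjusted test. In brown adipose tissue 5 of the 6 were positive with a median of 0.11, against 60.2% of all genes positive and a median of 0.04. Cyb5b and Cyb5r3, a cytochrome b5 and its reductase, had 0.41 and 0.39, and Cyb5a, another cytochrome b5, had 0.04. Sec14l2, known as supernatant protein factor for stimulating squalene epoxidation, had 0.11, Sec14l4 had 0.12 and Marchf6, the ubiquitin ligase that degrades squalene epoxidase, had -0.10. On the liver mean 0 of these 6 were positive, with a median of -0.16, where 45.4% of all genes were positive. The liver pool pairs differed in this. In pool pair 1, 0 of the 6 were positive with a median of -0.42, against 40.7% of all genes. In pool pair 2, 5 of the 6 were positive with a median of 0.12, against 60.4% of all genes. In size the liver means of Cyb5a and Sec14l2 were larger than that of Sqle at 0.26. Cyb5a had -0.57 in liver (unadjusted limma p 0.0240, adjusted p 1.0), with -0.90 in pool pair 1 against -0.23 in pool pair 2, and Sec14l2 had -0.29.

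Sterol sensing and uptake was represented on this design by 3 of 16 listed genes. In brown adipose tissue Npc2, which carries cholesterol out of lysosomes, had 0.52 (unadjusted limma p 0.0209, adjusted p 1.0), with 0.40 in pool pair 1 against 0.65 in pool pair 2. Its membrane partner Npc1 had 0.07 and the sterol receptor gene Nr1h3 had -0.02. In liver the 3 genes lay between -0.14 and -0.05. Of the branches that leave the pathway before squalene 3 of 10 genes were measured, with Fntb, a protein farnesyltransferase subunit, at 0.19 in brown adipose tissue, Rabggtb, a subunit for Rab proteins, at 0.03 and Ggps1, the geranylgeranyl diphosphate synthase, at -0.21.

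Of the 8 nearest measured genes in gene order on chromosome 15, 4 on each side of Sqle, Deptor stood apart in brown adipose tissue, at 1.73 as the mean of 2 clones, with 2.26 in pool pair 1 against 1.20 in pool pair 2. Deptor, an mTOR-binding protein, lies 63 genes from Sqle in the reference order. Washc5, the gene next to Sqle, had 0.52 in pool pair 1, -0.04 in pool pair 2 and a mean of 0.24, where Sqle had 0.55. The other 6, Mrpl13, Derl1, Tbc1d31, 4930402D18Rik, Myc and Efr3a, had brown adipose means between 0.03 and 0.21. All 8 were positive on the mean, as were 105 of the 161 measured genes of the chromosome other than Sqle, these 8 included (65.2%), and 60.2% of all genes, and 0 passed after adjustment. In liver the 8 ran from -0.31 for Washc5 to 0.36 for Deptor.

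Markers of other cell types were few on this design. In brown adipose tissue 2 of 10 skeletal muscle markers were measured, Tpm2 at -0.58 and Actn3 at -0.47. Both were negative in pool pair 1, at -0.89 and -0.57, and in pool pair 2, at -0.26 and -0.37, so on this design they lay opposite to Sqle in pool pair 1. On the second design, which has no Sqle clone, the sign was the other one: Tpm2 had 0.74 in brown adipose pool pair 1, and both of the 2 muscle markers measured there were positive, with a median of 0.72. Of hepatocyte markers 4 of 10 were measured, with a liver median of -0.56 in pool pair 1 and 0.14 in pool pair 2, and of macrophage markers 1 of 8. Their part in the ratios of Sqle was not tested.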

How the data were processed

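The deposited files hold 1 log2 ratio of the dyes per spot, without intensities. Nothing in the sources used here states the scanning, background correction or normalization by the authors, and base 2 was assumed because base 10 would turn the highest value, 7.12, into a ratio of 1.31e+07. The first design had 17280 spots in 48 blocks. Accessions with 2 spots (4976) always had them 160 rows apart, and the spots of the 7680 clones were matched by that spacing, and 1920 control spots were left out. Clones were named through the supplied platform annotation with symbols updated by gene ID to assembly GRCm38.p6 (4749 clones with 1 gene, 227 with several, 2704 with none, 3838 genes).

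Spots were averaged, arrays centred on the median clone and turned to Fob3b over F by the channel labels. Dye swaps of a pool pair were averaged and tested for each tissue in 1 limma fit (limma 3.58.1, R 4.3.3), with 2 residual and 9.09 prior degrees of freedom, and Benjamini-Hochberg adjustment over all clones. A second fit took the 10 arrays singly, with line effects per pool pair and a common dye effect (5 residual and 8.40 prior degrees of freedom). All tests were two-sided, and the number of arrays limits precision. Steps were tested on simulated data.

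Members, gene lists and tests were chosen with earlier results of these data known. The text names Sqle, Fdft1, Lss and the list members with the 4 largest ratios per tissue, the 10 clones most like Sqle and 4 measured neighbours per side. Further list members were named after their values were seen. Alternatives were centring, blocks, scaling, separate tissues, single arrays and spots, a replicate block and leaving out arrays or pool pairs, of which leaving out a pool pair of 1 tissue, and arrays from the second fit, was added after seeing the data.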

Additional observations from a re-analysis of the deposited data

How the results depend on the processing

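Sqle passed the adjusted test for neither tissue, nor for their difference, under any of the alternatives run with a test (21 in each tissue, 20 for the difference), and adjusted p ran from 0.630 to 1.0 in brown adipose tissue, from 0.232 to 1.0 in liver and from 0.332 to 1.0 for the difference. Leaving out arrays or pool pairs moved its value from -0.064 to 1.16 in brown adipose tissue, from -0.33 to 0.85 in liver and from -0.92 to 1.49 for the difference. Leaving out a pool number in both tissues leaves no residual degrees of freedom, so those are values without a test, and where 1 pool pair of 1 tissue was left out the remaining pair was assumed to vary like the other tissue. Reversed values were -0.064 in brown adipose tissue without pool pair 1, and in liver -0.33 without pool pair 2, -0.03 without the array of pool pair 2 with Fob3b in red and -0.27 without that of pool pair 1 with Fob3b in red. For the difference they were -0.92 without pool number 1, -0.33 without brown adipose pool pair 1, -0.31 without liver pool pair 1, -0.01 without the array of liver pool pair 2 with Fob3b in green and -0.24 without that of liver pool pair 1 with Fob3b in green. With no centring Sqle had 0.82 in brown adipose tissue, 0.17 in liver, 0.64 for the difference between tissues and a dye effect of 0.96 (adjusted p 5.21e-06, against 0.28 with centring), since array medians enter it, and 1 brown adipose clone was called. With blocks centred the difference between tissues was 0.16. With each tissue fitted alone 4 brown adipose clones were called. Leaving out arrays or pool pairs gave 0 to 4 called clones in brown adipose tissue, 0 to 131 in liver and 0 to 90 for the difference, against 0 each with all arrays. Without liver pool pair 2 these were 4, 131 and 90, and without liver pool pair 1 they were 4, 32 and 13. In brown adipose tissue 1 clone was called without its pool pair 2, and 1 without the array of that pair with Fob3b in green. The cause was not tested.

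With the pool number as a replicate block across tissues, Sqle had 0.55 in brown adipose tissue (SE 0.36, adjusted p 1.0) and 0.26 in liver (SE 0.36, adjusted p 0.918), and 0 clones were called. The labels do not say that equal pool numbers of the tissues share animals. The differences between pool pairs of brown adipose tissue and liver correlated at 0.38 over 7680 clones, but at 1.22 and -1.18 they were opposite for Sqle. These differences kept their sign under all 15 alternatives each, at 0.74 to 1.61 in brown adipose tissue and -2.16 to -0.21 in liver. The limma adjusted p was at least 0.427 and 0.0872. Some of the 15 could not change the value, namely the alternatives on the dye effect and those leaving out an array of the other tissue.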
